A study of Mus musculus with 4 samples.

Results

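The genes described here are 44 ribosome biogenesis factors, chosen by name for what their products do in the nucleolus, with earlier results of these data known, out of 24343 genes to which the transcript rows of the count table were summed. They were measured by RNA-seq in group 3 innate lymphoid cells (ILC3s), lymphocytes without antigen receptors that live mainly at mucosal surfaces and make IL-22. The cells were sorted from mice as negative for lineage markers and positive for CD127 and for GFP, which a reporter allele places under the IL-23 receptor locus. One group of 2 libraries came from sorted cells stimulated with TL1A, a cytokine of the TNF superfamily whose receptor is DR3, and the other group of 2 from such cells kept in medium. All 4 libraries share the genotype IL23R-GFP/WT (1 reporter copy and 1 wild-type copy), and the sources used here do not give the dose and duration of TL1A, the tissue or the age of the mice. No label says whether libraries of a condition came from separate mice or cultures, so the p-values cover no more than the spread among these 4 libraries, and that spread may be technical.

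Ribosomes are assembled in the nucleolus. RNA polymerase I transcribes the long rRNA precursor, small nucleolar ribonucleoproteins (snoRNPs) guide its methylation and pseudouridylation, and separate sets of helicases, GTPases and scaffold proteins cleave and fold it into the small and the large subunit before export to the cytoplasm. In lymphocytes this pathway is known as one that is turned up when resting cells grow in preparation for division. The 44 genes were grouped by role into 7 snoRNP genes, 4 genes of RNA polymerase I subunits, 14 genes of small subunit processing, 15 genes of large subunit assembly and 4 genes of abundant nucleolar proteins with several functions.

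The libraries held 11849977 and 12605164 assigned reads with TL1A and 11495636 and 12222552 in medium. Of 8 tested ILC3 markers, 3 were higher with TL1A (Il22, Thy1 and Id2) and 4 lower, among them Il7r, Il23r and Ahr. Il7r, which encodes CD127, had 1207 and 1189.7 CPM with TL1A, against 3548 and 3658 CPM in medium, and Kit had 1 read in all 4 libraries together. Among markers of other cell types, 2 of 5 tested T cell genes were lower with TL1A and none was higher, and their summed level was 211 and 206 CPM with TL1A and 497 and 513 CPM in medium; Cd8a had 0 reads throughout. Of the myeloid markers 3 of 7 tested were lower and 1 was higher, with a summed level of 746 and 729.9 CPM with TL1A and 1647 and 1819.6 CPM in medium and Itgam at 0. The B cell markers Blk and Cd79b were both tested and both higher, with a list sum of 849 and 777 CPM with TL1A and 154 and 167 CPM in medium, whereas no library had a read of Pax5 or Ms4a1. Epithelial and stromal markers summed to 4.83 and 3.88 CPM with TL1A and 13.7 and 7.56 CPM in medium, with 1 of 3 tested lower, and the haemoglobin genes Hba-a1 and Hbb-bs were at 0. The part of these other cells in the results below was not tested. In bulk RNA, fewer cells of a type and less RNA per cell cannot be told apart. A CPM value is a gene's counts scaled to a common library total with TMM factors. It is a relative level, and neither a plain share of the counted reads nor an amount per cell. The factors (0.908 and 0.921 for TL1A, 1.09 and 1.09 for medium) raise CPM values with TL1A relative to those in medium. Whether groups overlap is stated below for CPM unless said otherwise.

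More than 1 in 2 of the ribosome biogenesis genes tested were higher in TL1A-stimulated ILC3s, most by less than 2-fold. Of the 44 genes, 41 had enough reads to be tested, and 22 of these were higher with TL1A and 0 were lower at an adjusted p under 0.05, from edgeR's quasi-likelihood fit with Benjamini-Hochberg adjustment over 9852 genes; none of the 41 was lower even at an unadjusted p under 0.05, and DESeq2 and limma-voom also called 0 of them lower. Over all genes tested, 20.6% were called higher and 21.7% lower. The changes were small: the passing genes rose by 1.20-fold (Imp4) to 2.18-fold (Bysl), with only Bysl and Utp20 at 2-fold or more, whereas 8.77% of all genes tested passed with an increase of at least 2-fold. The median log2 fold change (TL1A over medium) was 0.42 over the 41 genes and -0.03 over all genes tested, while the median size of the change regardless of sign was 0.42 and 0.44. In CPM, both TL1A libraries lay above both medium libraries in 28 of the 41 genes and below them in 2, where 34.7% and 37.6% of all genes tested did so. Together the 44 genes took 0.622% and 0.623% of the assigned reads with TL1A and 0.557% and 0.571% in medium, without TMM scaling. With it, their summed level was 6852 and 6763 CPM with TL1A and 5091 and 5224 CPM in medium, a larger rise. The fold changes and calls thus rest in part on the scaling, and no fit on plain shares was made. The smallest increases, those of Imp4 and Ncl, depend on it most. The split of 28 genes above and 2 below rests on the scaling too. In plain shares of the assigned reads, the groups of the passing genes Imp4, Ncl and Nop14 overlapped. So did those of Polr1b, Noc2l, Rrs1 and Gnl3, which did not pass. Both TL1A libraries were below both medium libraries in plain shares of Nop2 and Ddx18, as in CPM. The same held for Dkc1, Wdr75, Wdr43, Noc4l, Ddx27 and Rrp1b, none of which passed.

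**Figure D1:**
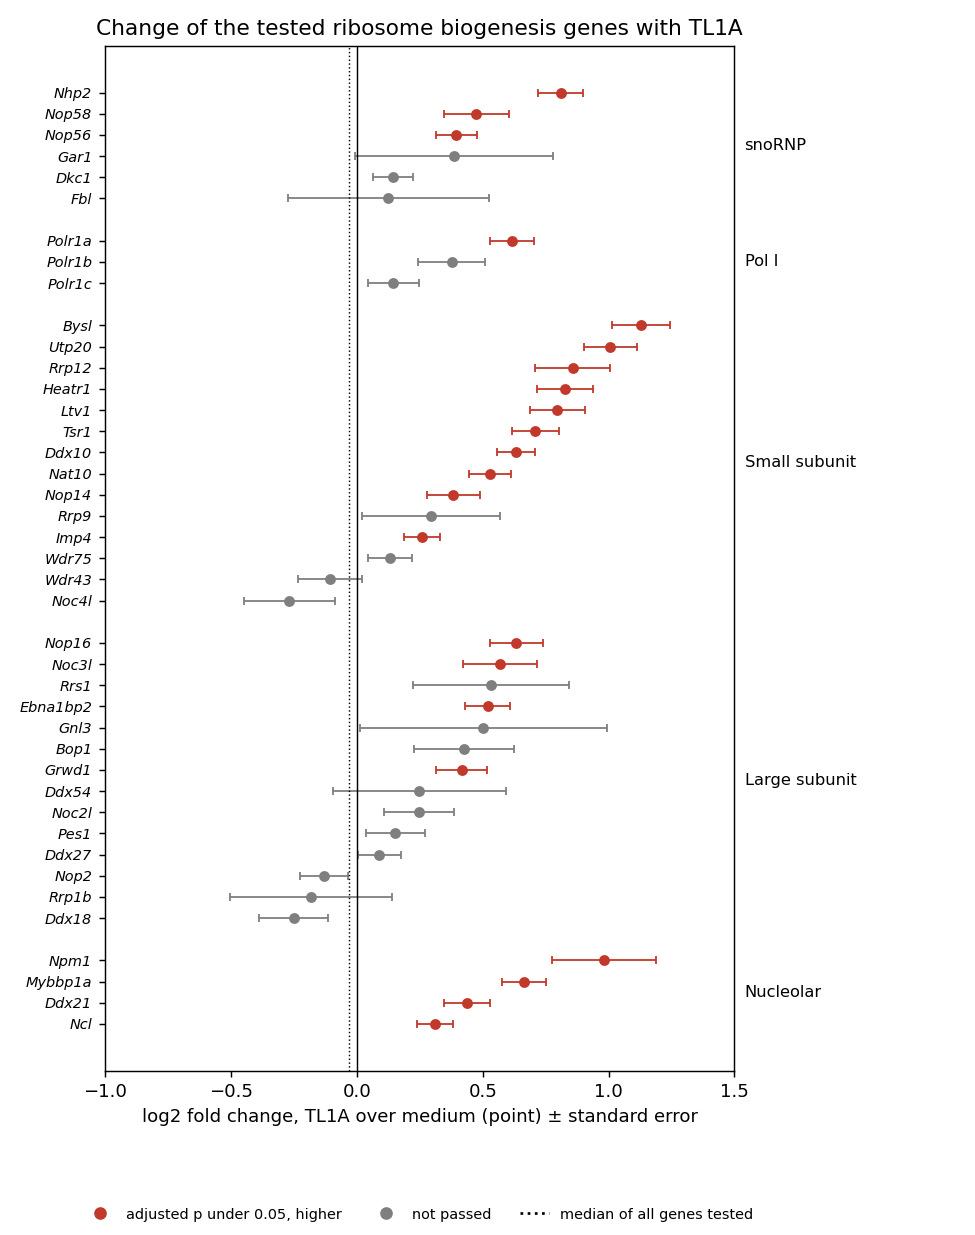
Log2 fold change (TL1A over medium, 2 libraries each) of the 41 tested genes by role, with bars for the standard error; red points passed an adjusted p under 0.05 and grey points did not. The 22 red points lie between 0.26 and 1.13, the grey points lie between -0.27 and 0.53, and the dotted line at -0.03 is the median of all genes tested.

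**Figure D2:**
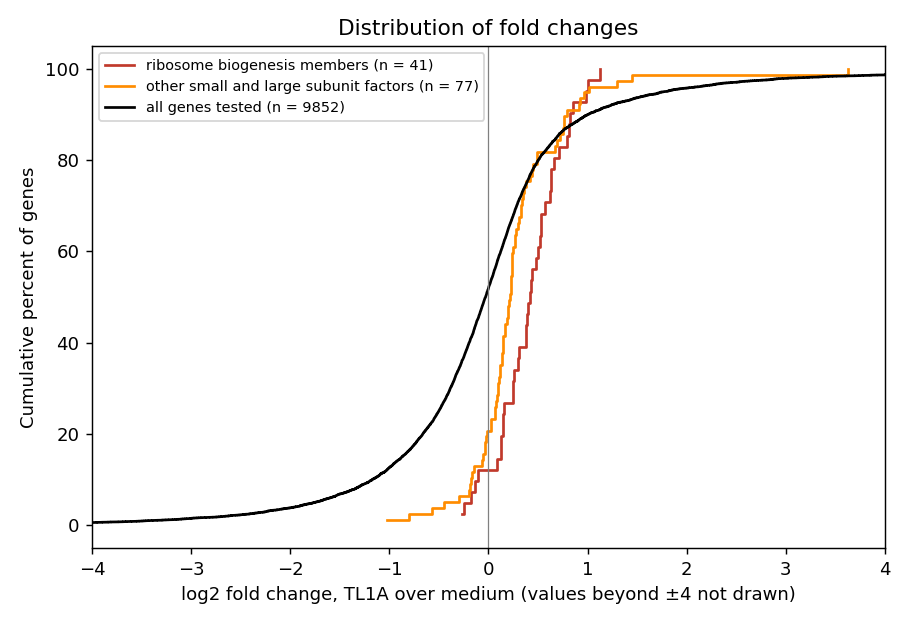
Cumulative percent of genes (vertical axis) by log2 fold change, TL1A over medium (horizontal axis), for the 41 tested ribosome biogenesis genes, 77 other small and large subunit factors and all 9852 genes tested. The curve of the 41 genes runs from -0.27 to 1.13 with its median at 0.42, against a median of -0.03 for all genes tested.

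The RefSeq promoter windows (250 bases before to 50 after a transcription start, build GRCm38.p6) were searched for CACGTG, the E-box that MYC and MAX bind, which reads the same on both strands and was the only motif searched. Of the 39 genes with an entry, 9 had the motif, or 23.1%, against 11.6% of the genes tested in the comparison and 8.09% of all genes in the table. So short a motif recurs by chance, and a match is neither a binding site nor a cause of the change. The windows around the 9 motifs are shown in gene orientation as the sequences behind that count; capitals mark CACGTG, and windows that reach the end of the RefSeq sequence are shorter. The counts were made on build mm9, and the coordinates are those of the RefSeq windows, not converted.
Utp20 (chr10:88826765-88826789, minus strand): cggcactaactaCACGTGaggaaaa
Ltv1 (chr10:13193092-13193121, minus strand): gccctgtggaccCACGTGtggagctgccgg
Tsr1 (chr11:74898092-74898121, plus strand): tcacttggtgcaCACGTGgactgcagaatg
Mybbp1a (chr11:72441355-72441376, plus strand): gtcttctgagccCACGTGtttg
Grwd1 (chr7:45830740-45830767, minus strand): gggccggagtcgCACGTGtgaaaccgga
Imp4 (chr1:34439696-34439725, plus strand): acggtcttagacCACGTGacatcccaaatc
Nop2 (chr6:125131811-125131840, plus strand): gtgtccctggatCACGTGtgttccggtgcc
Pes1 (chr11:3963965-3963994, plus strand): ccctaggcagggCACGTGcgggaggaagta
Wdr43 (chr17:71616220-71616249, plus strand): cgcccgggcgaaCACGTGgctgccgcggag
In 7 of the 9 genes the motif began after the annotated start, from base 3 in Pes1 to base 41 in Mybbp1a, and in Nop2 and Imp4 it began 60 and 121 bases before it. Of these 9 genes, Utp20, Ltv1, Tsr1, Mybbp1a, Grwd1 and Imp4 rose and Nop2, Pes1 and Wdr43 did not pass. Among genes with an entry, the motif was in 6 of 20 called higher (30%) and 3 of 16 that did not pass (18.8%). A link between motif and rise was not tested. Of the genes with the 6 largest increases, only Utp20 had the motif; Bysl, Heatr1 and Nhp2 had no CACGTG in their windows, and Rrp12 and Npm1 had no entry.

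The small subunit genes included those with the largest increases, Bysl and Utp20. Of 14 tested, 10 (71.4%) rose, beside 20.6% of all genes tested, and none fell, with a median log2 fold change of 0.58. Bysl, which encodes bystin, a factor of late small subunit precursors, had 112 and 120.3 CPM in the TL1A libraries, against 49.2 and 57.0 CPM in the medium libraries. Its TL1A libraries were both above the medium libraries by a wide margin, a 2.18-fold increase (log2 fold change 1.13, SE 0.11, edgeR adjusted p = 0.000217). Utp20, which encodes a very large scaffold protein of the small subunit processome, had 170.4 and 148 CPM in the TL1A libraries, against 81.5 and 76.7 CPM in the medium libraries. Again the groups did not overlap, and the increase was 2.01-fold (log2 1.01, SE 0.10, adjusted p = 0.000233). Rrp12, known from yeast for the export of ribosome precursors from the nucleus, had 108 and 100.4 CPM in the TL1A libraries, against 65.8 and 49.4 CPM in the medium libraries. The medium libraries differed from each other more than the TL1A libraries did, and both stayed below them (log2 0.86, SE 0.15, adjusted p = 0.00297).

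Heatr1, a processome gene whose human product also promotes rRNA transcription, had 188 and 223 CPM with TL1A, against 123 and 109 CPM in medium, and rose by 0.83 on the log2 scale (SE 0.11). Ltv1, which acts late in small subunit maturation, had 146 and 124 CPM with TL1A, against 76.7 and 79.2 CPM in medium and rose by 0.80 (SE 0.11). Tsr1, a GTPase-like factor of the last maturation steps, had 145 and 161 CPM with TL1A, against 94.7 and 92.2 CPM in medium and rose by 0.71 (SE 0.09). For these genes of the late steps as for Bysl, the lower TL1A library was well above the higher medium library. The helicase gene Ddx10 had 342 and 345 CPM with TL1A, against 212 and 232 CPM in medium and rose by 0.63 (SE 0.08). Nat10, which encodes the enzyme that acetylates cytidines of the small subunit rRNA, had 184 and 192 CPM with TL1A, against 126 and 134 CPM in medium and rose by 0.53 (SE 0.08). These 5 increases passed with edgeR adjusted p values of 0.000517 (Ddx10) to 0.0019 (Nat10), and neither Ddx10 nor Nat10 had overlapping groups.

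Smaller increases were found for Nop14 and Imp4, which encode further components of the processome. Nop14 had 139.8 and 152 CPM with TL1A, against 103 and 119.9 CPM in medium and rose on the log2 scale by 0.38 (edgeR SE 0.10, adjusted p = 0.0213). Its call was lost without TL1A replicate 2 (adjusted p = 0.105) and without medium replicate 1 (adjusted p = 0.0861). Imp4 had 259 and 259.7 CPM with TL1A, against 211 and 222 CPM in medium and rose by 0.26 (SE 0.07, adjusted p = 0.0238). The groups of Imp4 did not overlap in CPM but did in plain shares of the assigned reads. Its call was lost without TL1A replicate 1, TL1A replicate 2 or medium replicate 1, and under a block on replicate number (edgeR adjusted p = 0.0744). The log2 fold change of Nop14 was 0.33 without TL1A replicate 2 and 0.27 without medium replicate 1. That of Imp4 was 0.21 without medium replicate 1 and 0.26 to 0.27 in the other fits that lost its call.

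The other 4 small subunit genes did not pass. Wdr75, one of the processome proteins that in human cells also support rRNA transcription, had 113 and 112 CPM with TL1A, against 104 and 101 CPM in medium, and the 95% interval of its log2 fold change (0.13) was -0.07 to 0.34, so an increase of the size seen for Bysl lay outside it. Wdr43, of the same subcomplex, had 165 and 199.8 CPM with TL1A, against 215 and 178 CPM in medium. Noc4l, the partner of Nop14 in yeast, had 50.6 and 63.5 CPM with TL1A, against 79.6 and 57.9 CPM in medium. Rrp9, which encodes a protein of the snoRNP that pairs with the rRNA precursor in early processing, had 26.5 and 38.7 CPM with TL1A, against 33.3 and 19.9 CPM in medium. In these last 3 genes the groups overlapped, with TL1A replicate 1 below TL1A replicate 2 and medium replicate 1 above medium replicate 2, and their log2 fold changes were -0.11 (SE 0.13), -0.27 (SE 0.18) and 0.29 (SE 0.27) for Wdr43, Noc4l and Rrp9 in that order.

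**Figure D3:**
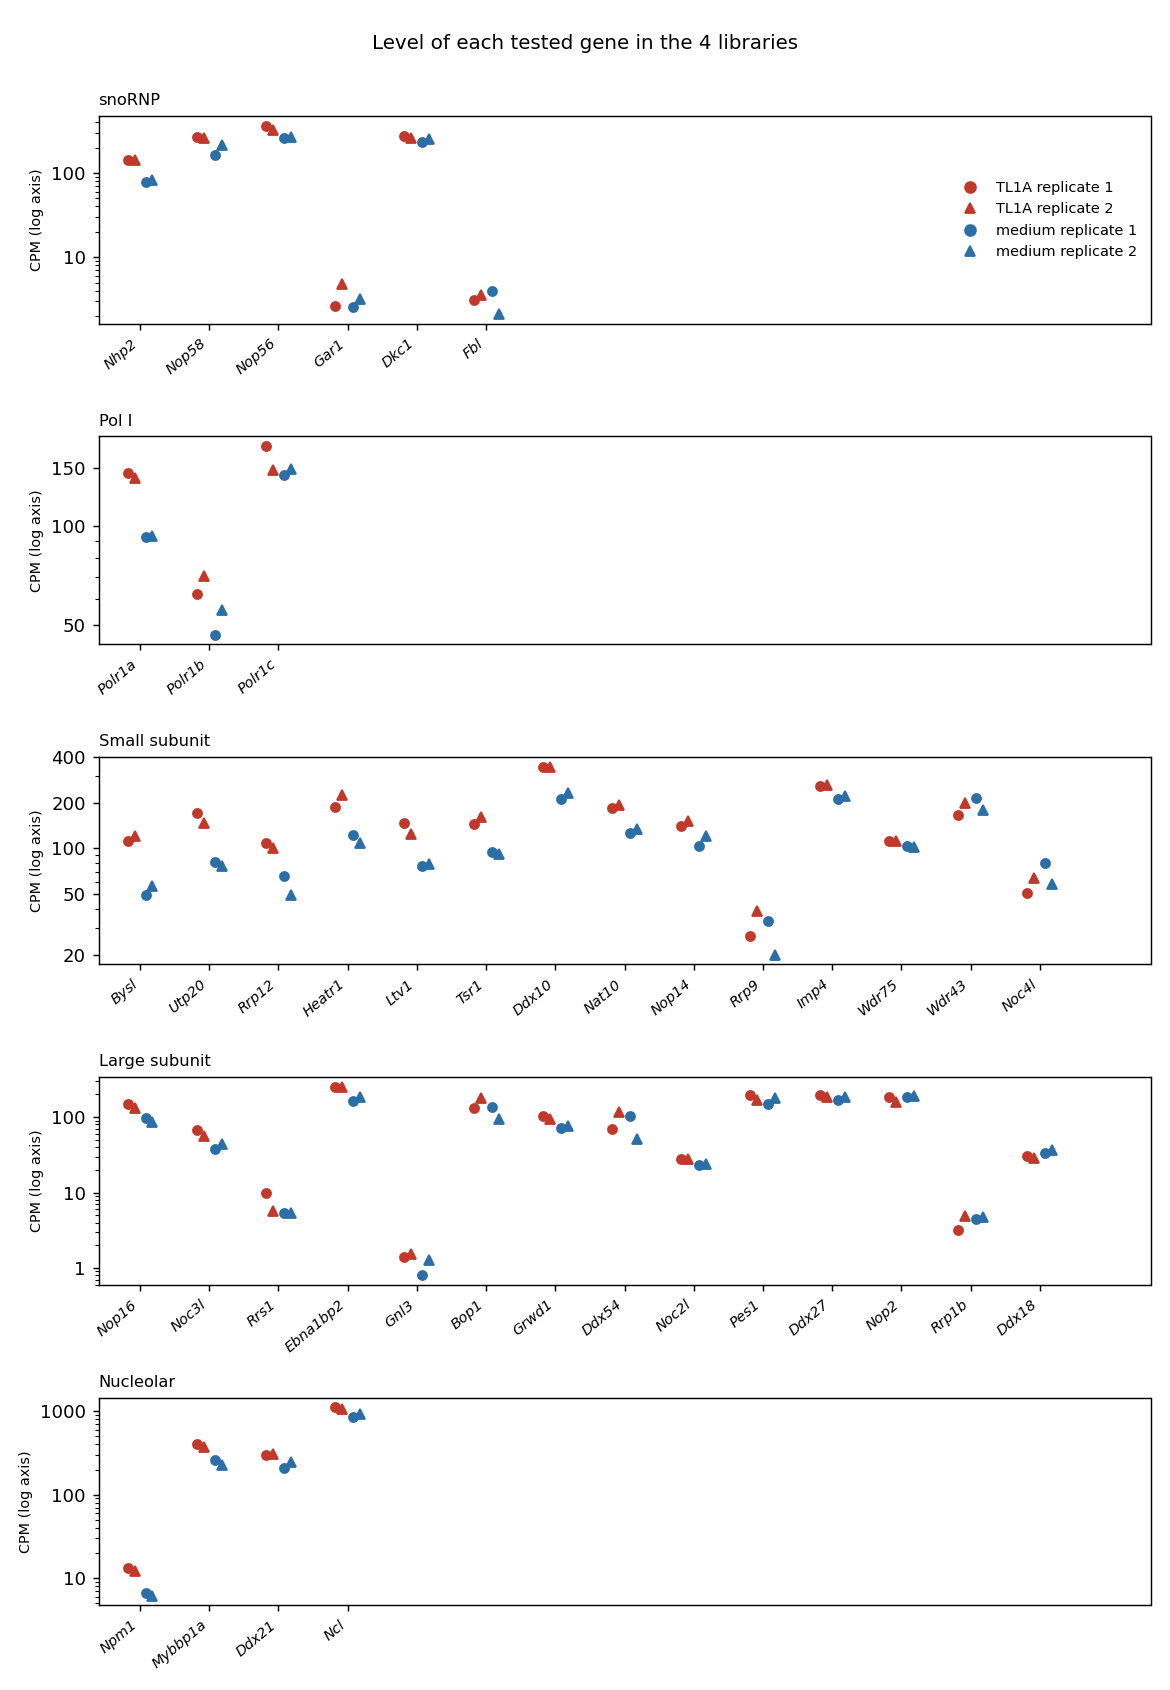
CPM of each of the 41 tested genes in the 4 libraries (vertical log axes, 1 panel per role; red TL1A left of blue medium; circles replicate 1 and triangles replicate 2). In Bysl and Utp20 the red points lie clear above the blue points, while in Ddx54, Rrp9 and Bop1 the red and blue points interleave.

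Among the snoRNP genes, 3 of 6 tested (50%) rose, beside 20.6% of all genes tested, and none fell (median log2 fold change 0.39). The list is small. Nhp2, a core protein of the box H/ACA snoRNPs that guide pseudouridylation, had 144 and 141 CPM in the TL1A libraries, against 79.2 and 83.4 CPM in the medium libraries. Both TL1A libraries were above both medium libraries, a 1.75-fold increase (log2 0.81, SE 0.09, edgeR adjusted p = 0.000337). Dkc1, the pseudouridine synthase of the same particle, had 278 and 259 CPM in the TL1A libraries, against 233 and 253 CPM in the medium libraries. Its groups were separate but close in CPM, and it did not pass (log2 0.14, 95% interval -0.04 to 0.33, adjusted p = 0.192). In plain shares of the assigned reads, both TL1A libraries of Dkc1 were below both medium libraries. The ratio of Nhp2 to Dkc1 reads, which does not depend on the scaling of the libraries and was examined after the values were seen, was 0.520 and 0.543 with TL1A and 0.339 and 0.330 in medium; with 2 libraries against 2 the smallest two-sided p of an exact permutation test is 0.333. Gar1, a further core protein of that particle, had only 28 and 56 reads with TL1A and 32 and 42 in medium, and did not pass (log2 0.39, 95% interval -0.54 to 1.31).

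Nop56 and Nop58 encode the paired scaffold proteins of the box C/D snoRNPs, which guide methylation. Nop56 had 365 and 324 CPM with TL1A, against 258 and 266 CPM in medium and rose on the log2 scale by 0.40 (edgeR SE 0.08, adjusted p = 0.00689; adjusted p = 0.0569 without TL1A replicate 1). Nop58 had 268 and 259.9 CPM with TL1A, against 163 and 217 CPM in medium and rose by 0.48 (SE 0.13, adjusted p = 0.0213). The medium libraries of Nop58 were far apart, so that its log2 fold change was 0.72 without medium replicate 2 and 0.28 without medium replicate 1. Fbl, the methyltransferase of the same particle, had only 33 and 41 reads with TL1A and 50 and 28 in medium; the groups overlapped and the 95% interval of its log2 fold change (0.13) was -0.81 to 1.06, and an increase of 2-fold lay within it. Nolc1, which encodes a chaperone of snoRNPs, had 0 reads in each library over 4 deposited rows. Reads that fall in parts shared by several rows were not counted, so this 0 does not measure the gene.

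Of the 3 tested RNA polymerase I genes, 1 rose (33.3%, beside 20.6% of all genes tested), and the list's median log2 fold change was 0.38. The list is too small for that share to set it apart. Polr1a, the largest catalytic subunit, had 144 and 139.7 CPM in the TL1A libraries, against 92.3 and 92.9 CPM in the medium libraries. The libraries of each condition lay close together, and the increase was 1.53-fold (log2 0.62, SE 0.09, edgeR adjusted p = 0.00107). Polr1b, the second largest subunit, had 62.2 and 70.5 CPM with TL1A, against 46.6 and 55.5 CPM in medium. Its groups did not overlap in CPM but did in plain shares of the assigned reads. It did not pass (log2 0.38, SE 0.13, adjusted p = 0.0577), but passed without medium replicate 2 (log2 0.54, adjusted p = 0.028). Polr1c, a subunit shared with RNA polymerase III, had 175 and 148 CPM with TL1A, against 143 and 149 CPM in medium, with overlapping groups and a 95% interval of -0.09 to 0.39 for its log2 fold change of 0.15. Polr1e had 0 and 1 reads with TL1A and 0 and 0 in medium over 2 rows and could not be tested. As reads in parts shared by these rows were not counted, this does not measure the gene.

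In large subunit assembly, 4 of 14 tested genes (28.6%) rose, near the 20.6% called higher over all genes tested, and none fell, with a median log2 fold change of 0.33. Nop16 had 149 and 134 CPM in the TL1A libraries, against 96.4 and 85.9 CPM in the medium libraries, with no overlap and an increase on the log2 scale of 0.63 (edgeR SE 0.10, adjusted p = 0.00243). Ebna1bp2, whose yeast counterpart is needed for large subunit rRNA processing, had 254 and 249 CPM with TL1A, against 163 and 188 CPM in medium and rose by 0.52 (SE 0.09, adjusted p = 0.00302). These 2 increases held without any single library. Noc3l had 67.0 and 55.6 CPM with TL1A, against 37.9 and 44.7 CPM in medium and rose by 0.57 (SE 0.15, adjusted p = 0.0176), with adjusted p = 0.0988 without TL1A replicate 1 and 0.0665 without medium replicate 1. Grwd1, which encodes a chaperone of ribosomal protein, had 103 and 94.6 CPM with TL1A, against 72.1 and 75.6 CPM in medium and rose by 0.42 (SE 0.10, adjusted p = 0.0136; 0.0889 without TL1A replicate 1). In both genes the groups did not overlap.

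The PeBoW complex, made of the products of Pes1, Bop1 and Wdr12, is required to process the rRNA of the large subunit. Neither Pes1 nor Bop1 passed in the main test, and Wdr12 was not tested. Pes1 had 194 and 168 CPM with TL1A, against 147 and 178 CPM in medium, with overlapping groups (log2 0.15, 95% interval -0.12 to 0.43). Bop1 had 131 and 181 CPM with TL1A, against 137 and 95.6 CPM in medium. In Bop1 the libraries of each condition differed as much as the conditions did (log2 0.43, SE 0.20, edgeR adjusted p = 0.126); it passed without TL1A replicate 1 (log2 0.65, adjusted p = 0.0228) and without medium replicate 1 (log2 0.70, adjusted p = 0.0154). Wdr12 had 6 and 4 reads with TL1A and 8 and 7 in medium over 3 rows and could not be tested. Reads in parts shared by these rows were not counted, so the low count may understate the gene.

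The helicase genes of the large subunit did not pass either. Ddx27 had 194 and 185 CPM with TL1A, against 169 and 187 CPM in medium, and the 95% interval of its log2 fold change (0.09) was -0.11 to 0.29. Ddx18 had 30.9 and 28.3 CPM with TL1A, against 33.8 and 36.6 CPM in medium; both TL1A libraries were below both medium libraries, with a log2 fold change of -0.25 and a 95% interval of -0.57 to 0.07. Ddx54 had 69.0 and 116 CPM with TL1A, against 105 and 51.0 CPM in medium, so that TL1A replicate 2 and medium replicate 1 were high and the other 2 libraries low. Its log2 fold change was 0.25 (SE 0.34), and it passed only without medium replicate 1 among the fits that left out a library (log2 0.85, adjusted p = 0.0359). Nop2, an rRNA cytosine methyltransferase gene, had 182 and 157 CPM with TL1A, against 183 and 189 CPM in medium, with both TL1A libraries lowest by a narrow margin (log2 -0.13, 95% interval -0.35 to 0.09). Noc2l, the partner of Noc3l in yeast, had 27.9 and 28.1 CPM with TL1A, against 23.0 and 24.2 CPM in medium. Both TL1A libraries were above in CPM, but the groups overlapped in plain shares (log2 0.25, 95% interval -0.08 to 0.58). The remaining large subunit genes had few reads and wide intervals. Rrs1 had 105 and 66 reads with TL1A and 67 and 71 in medium (95% interval -0.20 to 1.26), with TL1A replicate 1 above the other libraries. Gnl3, which encodes the nucleolar GTPase nucleostemin, had 15 and 18 reads with TL1A and 10 and 17 in medium (95% interval -0.65 to 1.65). Rrp1b had 34 and 57 reads with TL1A and 56 and 63 in medium, with overlapping groups (95% interval -0.93 to 0.57). Gnl3 and Rrp1b have 2 deposited rows each, and reads shared by the rows of a gene were not counted, so their levels may be understated.

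All 4 genes of abundant nucleolar proteins rose, a small list, beside 20.6% of all genes tested. Ncl, which encodes nucleolin, was the most counted of the 44 genes with 1125 and 1073 CPM in the TL1A libraries, against 844 and 927 CPM in the medium libraries. Its increase was small, 1.24-fold (log2 0.31, SE 0.07, edgeR adjusted p = 0.0101), and the call was lost without TL1A replicate 1 (adjusted p = 0.0656). Mybbp1a, which encodes a nucleolar partner of transcription factors and of RNA polymerase I, had 405 and 370.1 CPM with TL1A, against 259 and 229.8 CPM in medium and rose by 0.66 on the log2 scale (SE 0.09, adjusted p = 0.000797). Ddx21, a helicase gene that links rRNA transcription and processing, had 299.9 and 310.1 CPM with TL1A, against 207 and 243 CPM in medium and rose by 0.44 (SE 0.09, adjusted p = 0.00745). In each of these genes both TL1A libraries were above both medium libraries in CPM. In plain shares of the assigned reads, the groups of Ncl overlapped. Npm1, which encodes the nucleolar chaperone nucleophosmin, had only 141 and 142 reads with TL1A and 84 and 82 in medium, all on 1 of its 3 deposited rows. It rose by 0.98 (SE 0.21, adjusted p = 0.00757), a value that rests on the few reads placed uniquely on that row and is uncertain, since parts shared between rows and near-identical pseudogene copies were not counted.

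The genes that did not pass included a set with opposite splits between the libraries of the 2 conditions. In Ddx54, Rrp9, Bop1, Noc4l and Wdr43, TL1A replicate 2 exceeded TL1A replicate 1 and medium replicate 2 was below medium replicate 1, both by over 0.25 in log2(CPM + 0.5), while 0 of the 41 genes showed the reverse split by that margin. This margin was chosen after the values were seen, and Noc3l (-0.27 between the TL1A libraries and 0.24 between the medium libraries) and Pes1 (-0.21 between the TL1A libraries and 0.28 between the medium libraries) showed the reverse split just under it, as replicate 2 minus replicate 1 in log2(CPM + 0.5).

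**Figure D4:**
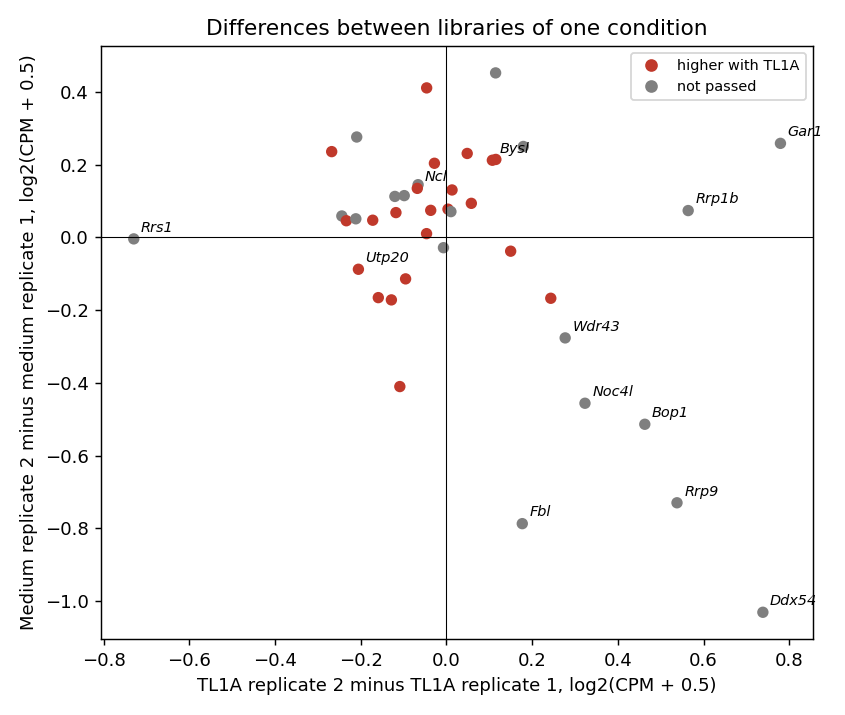
Difference between the TL1A libraries (horizontal axis) and between the medium libraries (vertical axis), in log2(CPM + 0.5), for each of the 41 tested genes; red genes rose with TL1A and grey genes did not pass. Most red points lie near the centre, and Ddx54, Rrp9, Bop1, Noc4l and Wdr43 lie at the lower right.

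Other genes of the pathway were taken from lists of the same roles. Of 39 tested further small subunit factors 11 (28.2%) rose, near the 20.6% of all genes tested, and 1 fell, with a median log2 fold change of 0.17. Of 38 tested further large subunit factors 14 (36.8%) rose and 2 fell, with a median of 0.23. Rcl1, whose yeast counterpart acts in the first cleavages of the small subunit rRNA, had 165 and 180.0 CPM in the TL1A libraries, against 14.2 and 13.7 CPM in the medium libraries. This 12.4-fold increase (log2 3.63, SE 0.11, edgeR adjusted p = 6.8e-07) exceeded that of each of the 41 genes. Pno1 and Nol7 rose by 0.96 (SE 0.13) and 0.72 (SE 0.09), whereas Riok2, a kinase gene of late small subunit maturation, had 137 and 151 CPM with TL1A, against 218 and 209 CPM in medium and fell (log2 -0.57, SE 0.09, adjusted p = 0.00152). For the large subunit, the GTPase gene Gtpbp4 had 416 and 390.3 CPM with TL1A, against 196 and 204 CPM in medium and rose by 1.01 (SE 0.07). Eif6, which keeps new large subunits from joining small ones too early, had 368 and 418 CPM with TL1A, against 177 and 142 CPM in medium and rose by 1.30 (SE 0.12). Pwp1 and the giant AAA ATPase gene Mdn1 rose by 0.92 (SE 0.07) and 0.80 (SE 0.10), and the large subunit genes that fell were Las1l (log2 -0.29, SE 0.10) and Tex10 (log2 -0.81, SE 0.28), of which 0 were called under a block on replicate number. Without TL1A replicate 1, 7 of the further small subunit genes rose.

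The remaining lists of the pathway are given beside the same background of 20.6% higher and 21.7% lower. Of 10 tested further RNA polymerase I transcription genes, 1 rose, and the list's median was 0.02. The gene that rose was Ubtf, the gene of an rRNA transcription factor. It had 2.23 and 1.64 CPM with TL1A, against 0.557 and 0.748 CPM in medium. Its call was lost without TL1A replicate 1, without TL1A replicate 2, without medium replicate 2 and under a block on replicate number. With only genes of 1 deposited row kept, 0 genes of the list rose. Reads in parts shared by several rows of a gene were not counted, so the level of Ubtf may be understated. Of 10 further snoRNP genes, the assembly factor gene Znhit6 (log2 0.63, SE 0.14) and Ruvbl2 (log2 0.27, SE 0.08) rose, and Nop10, the fourth core protein of the box H/ACA particle beside Nhp2, Dkc1 and Gar1, fell, with 166 and 168 CPM with TL1A, against 200.4 and 224 CPM in medium (log2 -0.34, SE 0.09, edgeR adjusted p = 0.0153). The call of Nop10 was lost without TL1A replicate 1, TL1A replicate 2 or medium replicate 2, and the number that rose fell short of 2 in several fits, at 0 when TL1A replicate 2 was left out and at 1 without TL1A replicate 1, without medium replicate 1 or under a block on replicate number. Of 14 exosome and exonuclease genes that trim rRNA, 4 rose and 1 fell (median 0.19). Mphosph6 rose by 0.77 (SE 0.11), Dis3 by 0.75 (SE 0.16), Exosc2 by 0.34 (SE 0.09) and C1d by 0.24 (SE 0.08), and the exonuclease gene Xrn2 had 583 and 563 CPM with TL1A, against 724 and 756 CPM in medium and fell (log2 -0.37, SE 0.06). Without TL1A replicate 1, TL1A replicate 2 or medium replicate 1, 2 of these genes rose.

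The proteins of the ribosome itself were mostly not called. Of 69 tested cytosolic ribosomal protein genes, 8 (11.6%) rose, 5 (7.25%) fell and 56 did not pass, beside 20.6% higher and 21.7% lower over all genes tested. Their median log2 fold change was 0.07, and their summed level was 11428 and 10855 CPM with TL1A and 10864 and 12153 CPM in medium. The stalk protein genes Rplp0 and Rplp2 rose by 0.50 (SE 0.08) and 0.76 (SE 0.11), the paralogue Rpl39l had 20.2 and 21.1 CPM with TL1A, against 3.90 and 4.64 CPM in medium, a rise of 2.27 (SE 0.20), and Rpl13a had 321 and 313 CPM with TL1A, against 405 and 460.5 CPM in medium, a log2 fold change of -0.45 (SE 0.08). Ribosomal protein genes have many near-identical pseudogenes, to which reads are lost as not uniquely aligned, so these values are uncertain. The number that fell was 9 without medium replicate 1, 1 without TL1A replicate 2 and 2 without medium replicate 2, and the number that rose was 4 or 5 with either of the TL1A libraries left out. In the MYC network, 0 of 5 tested genes passed with edgeR, DESeq2 or limma-voom, and 0 had an unadjusted edgeR p under 0.05. Myc itself, which encodes a transcription factor known to drive ribosome biogenesis genes, had 0 reads in every library over 4 deposited rows, which does not measure the gene, and Max had 2 reads in all. Of 31 tested snoRNA rows, Snord104, Snord22 and Snord49a rose and Snord91a fell, each with under 10 CPM in every library, and with DESeq2 or with any 1 of the 4 libraries left out, 1 snoRNA rose. The call of Snord91a was lost with DESeq2, with limma-voom and without TL1A replicate 1, TL1A replicate 2 or medium replicate 1. Reads of snoRNAs and of the unspliced introns that hold them cannot be told apart.

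**Figure D5:**
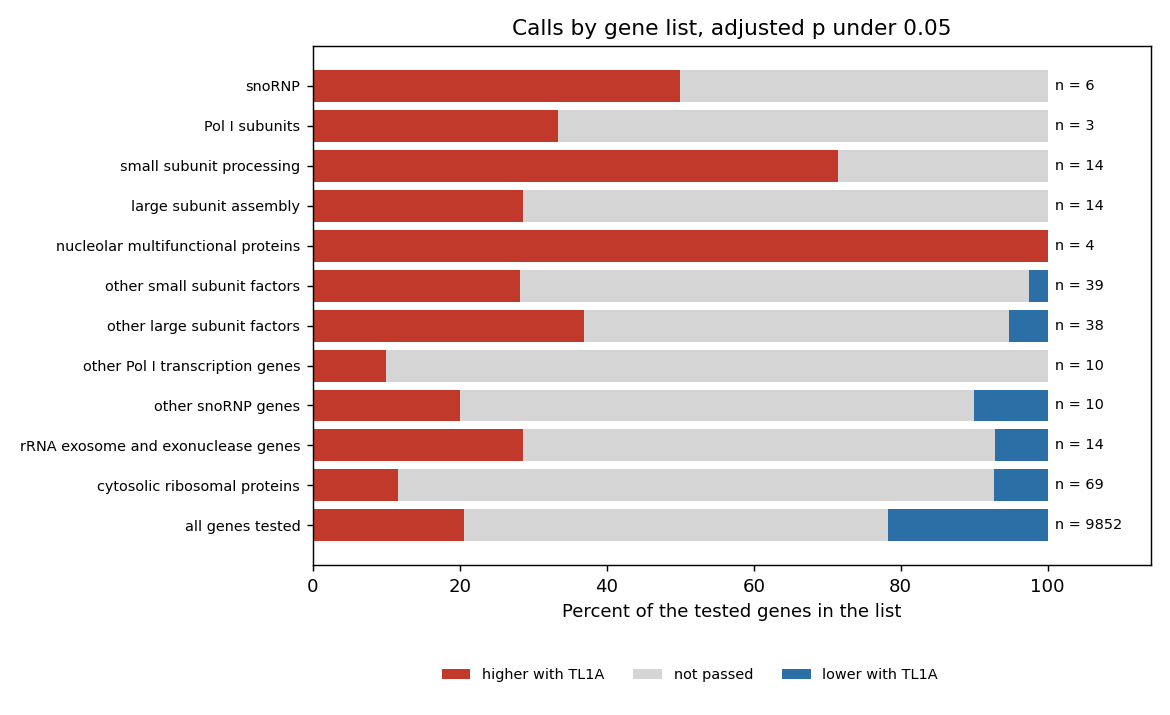
Percent of the tested genes in each list (horizontal axis) that were higher with TL1A (red), did not pass (grey) or were lower (blue) at an adjusted p under 0.05, with the number tested at the right. The small subunit processing bar is red for 10 of 14 genes and the large subunit assembly bar for 4 of 14, neither with a blue part, beside 20.6% red and 21.7% blue for all genes tested.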

How the data were processed

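RNA-seq counts of 4 libraries were analysed, 2 from TL1A-stimulated and 2 from medium-kept ILC3s. Per the labels' protocols, a SMARTer Ultra Low Input kit amplified the cDNA and Illumina libraries were then prepared. CASAVA, STAR and HTSeq and the build mm9 are named in the submitters' processing notes; their versions, the strand setting and the annotation were not given in the sources used here. Each deposited value is a raw count of reads on a RefSeq transcript, in 33535 rows and 5 HTSeq summary rows, which made up 69.9% to 71.3% of a column and were left out. Because rows are transcripts, reads in exons shared by several rows are ambiguous (33.7% to 34.0% of assigned plus ambiguous reads) and were not counted, and reads of near-identical copies are lost as not unique.

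Gene names were looked up in RefSeq (GRCm38.p6), with no coordinates taken: 33154 matched and 381 stayed under their RefSeq identifier, at 0.851% to 0.900% of the assigned reads. Rows of a gene were summed to 24343 genes; 38 of the 44 genes described have 1 row. The tests were edgeR 4.0.16 quasi-likelihood tests in R 4.3.3 (filterByExpr minimum count 10, TMM factors 0.908 and 0.921 for TL1A and 1.09 and 1.09 for medium, group as the only term, two-sided, Benjamini-Hochberg over 9852 genes), tested on simulated data. SE is the log2 fold change divided by the square root of F, and 95% intervals use the test's degrees of freedom. None of the 44 genes had 2 tested rows, so no row-against-row test was made of them. Alternatives used RLE factors, TMM without the 50 most abundant genes, no filter, DESeq2 1.42.0, limma-voom (limma 3.58.1), each library left out, the replicate number as a block, single rows and, added after seeing the data, a crossed block and a GC correction. GC content came from GENCODE M21 coding sequences of the same RefSeq transcripts. Promoter sequences are from RefSeq, build GRCm38.p6; 39 of the 44 genes matched.

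The 44 genes and the lists were chosen with earlier results of these data known, so no list was tested as a whole. All 44 genes were named; from each further list up to 4 passing genes with the smallest p were named, and any others were named after their values were seen. Some marker genes are not reported here.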

Additional observations from a re-analysis of the deposited data

How the results depend on the processing

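Of the 41 tested genes, 22 were called higher in the main test and 18 to 25 under the alternatives, and none was called lower under any of them. The same 22 were called with RLE factors, TMM without the 50 most abundant genes, limma-voom, each row on its own and the GC correction. DESeq2 added Bop1, and no filter added Bop1 and Polr1b. All of these fits scaled the libraries by TMM, RLE or similar factors, and calls on plain shares of reads were not tested. With the replicate number as a block 21 of the 22 were kept and Imp4 was lost; the median log2 fold change was 0.42, and over all genes the block called 1736 higher and 1806 lower, against 2027 and 2141 without it. What the number stands for is not stated, and the main test did not take it to pair libraries. Deviations of same-numbered libraries correlated at -0.10 over all genes tested and at -0.37 over the 41 genes. With 2 libraries a condition, these values cannot decide whether same-numbered libraries were paired. A crossed pairing as a block, added after seeing the data, called 25 of the 41 genes higher, and 2295 genes higher and 2439 lower over all. With 2 libraries a condition, its correlation of 0.10 mirrors the -0.10 by construction. A block chosen after that sign was seen tends to add calls, so its counts are no evidence for the crossed pairing.

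With 1 library left out, where the lone library is assumed to vary like the others, 18 to 23 genes were called higher and the median log2 fold change was 0.38 to 0.54; the lowest count was without TL1A replicate 1, which lost Grwd1, Imp4, Ncl, Noc3l and Nop56. Genes that changed sign had not passed: over these fits the log2 fold change ranged from -0.24 to 0.65 for Fbl, from -0.0021 to 0.706 for Rrp9, from -0.12 to 0.77 for Gar1, from -0.53 to 0.11 for Rrp1b, from -0.244 to 0.031 for Wdr43 and from -0.16 to 0.85 for Ddx54. The median of the further RNA polymerase I genes ranged from -0.042 to 0.109 and that of the ribosomal proteins from -0.014 to 0.142. The cause was not tested. With 2 libraries a condition, changes of the sizes seen here rest on the spread pooled across genes. Fbl, Gar1, Gnl3, Rrp1b and Rrs1 had few reads and 95% intervals wider than 1 on the log2 scale. Ddx54 (-0.56 to 1.05) and Rrp9 (-0.35 to 0.94) had more reads and intervals that were also wider than 1.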
